A study of Mus musculus with 8 samples.

Results

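T cell receptor genes bear on clonality in this study. An age-associated clonal expansion is a CD8 T cell population grown from a single cell, and its cells share a receptor. The array used names few of the receptor segments, so the view of clonality here is limited. The genes described here are the probe sets of the Affymetrix Mouse Genome 430 2.0 array whose platform symbol is spelled like a T cell receptor variable, joining, diversity or constant segment, or like a receptor locus. This spelling rule found 21 of 45101 probe sets. Of these, 3 belong to Tradd, an adaptor of tumour necrosis factor receptor signalling that is no receptor segment, so 18 probe sets are described as receptor members. Tradd matched by its first letters alone.

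The arrays held 4 clonal expansions and 4 polyclonal CD8 memory samples, 1 of each kind from each of 4 old female mice, sorted from spleen and lymph nodes as CD8+ CD122+ MHC II- cells. Age was 20 months for mice 1 and 2, and 23 months for the other pair of animals. All but mouse 4 were of strain C57BL/10SnJ, and since mouse 4 alone came from B10.BR, its strain and the animal cannot be told apart. Expansions 1 to 4 were sorted as positive for V beta chains Vb3, Vb8.1/8.2, Vb8.3 and Vb14, and each polyclonal partner was sorted as negative for the same chain. Purity after sorting, in order of the mice, was 91, 95, 96 and 98% in expansions, while it was 97, 75, 66 and 97% in their partners. By the labels, expansion 1 is of a subclass with high integrin alpha4, whereas integrin alpha4 is low in expansions 2 to 4. By the scanner records the array of expansion 4 was run in a session of its own, so that session and that sample cannot be told apart. Each expansion is 1 clone, and the cells that carry a V beta chain can include a minority that are not of the clone.

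The receptor of most CD8 T cells is a pair of an alpha and a beta chain. Each chain gene is assembled in the thymus by joining a variable (V) and a joining (J) segment, with a diversity (D) segment in the beta chain, and is then spliced to a constant (C) region. A cell normally puts 1 beta chain on its surface, which is why antibodies to V beta families can pick out a clone. Gamma and delta chains form the receptor of a separate lineage, but gamma genes are also rearranged and transcribed in many cells with an alpha beta receptor, CD8 cells among them.

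By locus, the 18 receptor members comprised 9 probe sets with a V alpha symbol, 1 with the symbol of the whole alpha locus (Tcra), 3 with a V beta symbol and 5 with a V gamma symbol. The platform list named 5 of the 130 Trav segments, 2 of the 35 Trbv segments and 3 of the 7 Trgv segments in the RefSeq gene table of the GRCm38.p6 assembly, 0 constant regions and 0 joining or diversity segments. Of the V segments sorted on, only Trbv13-2, which the RefSeq table gives as V8.2, has a probe set here. The segments of Vb3 (Trbv26), Vb8.1 (Trbv13-3), Vb8.3 (Trbv13-1) and Vb14 (Trbv31) are named for 0 probe sets. For mice 1, 3 and 4 the question whether the expansion carries transcripts of its sorted V beta therefore could not be put to a named probe set. For mouse 2 it could be put for Vb8.2 alone, as Vb8.1 has no named probe set.

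Background on each array was the level below which 95% of 27 bacterial control probe sets lay, and it ranged from 33.7 to 61.9. Median signal per array was 46.5 to 75.1, and 22050 to 30498 probe sets lay above background. The number of arrays limits the precision. Of the 18 receptor members, 10, 7, 11 and 11 were above background in expansions 1 to 4, against 10, 12, 15 and 13 in their polyclonal partners. The members with a signal on 8 of 8 arrays were Trav9d-3 (3 probe sets), Trav12n-2, Trbv1 and a gamma probe set listing both Trgv4 and Trgv2. A Trav9d-3 and a Trgv4 probe set were above background on 0 arrays. In bulk samples such as these, fewer cells with a transcript and less transcript per cell cannot be told apart.

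The only probe set for a sorted V segment, Trbv13-2 (1427628_at), read 67.3 in expansion 2, which had been sorted as Vb8.1/8.2+, and 119 in the partner that had been sorted as negative for these chains. Its signal was 144, 63.7 and 9.79 in expansions 1, 3 and 4, and 64.6, 123 and 117 in polyclonal samples 1, 3 and 4. The highest array was expansion 1, and the Vb8.1/8.2+ expansion lay below its own partner, at a log2 difference of -0.78. In pairs 1, 3 and 4 that difference was 1.10, -0.90 and -3.04. Values were log2(signal + 5), and this applies to each log2 difference given here. The mean over pairs was -0.90 ± 1.69 (SD, n = 4), with an unadjusted p of 0.175 (limma adjusted p = 0.9998). Expansion 4 was not above background, where the polyclonal partner was at least 3.14-fold higher. The other 7 arrays were above background, with 144 as the highest signal. The sort label of expansion 2 does not separate Vb8.1 from Vb8.2. These values therefore cannot decide whether its clone carries the sorted chain.

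The Trbv1 probe set 1452205_x_at was the bright beta member. Its signal was 2630, 2815, 1386 and 1720 in expansions 1 to 4 and 1919, 9575, 8441 and 1768 in polyclonal samples 1 to 4. Polyclonal samples 2 and 3 stood high, while the other 6 arrays overlapped between the groups. Log2 differences were 0.45, -1.76, -2.60 and -0.04 in pairs 1 to 4, a mean of -0.99 ± 1.44 (SD, n = 4), which did not pass (unadjusted p of 0.0635, limma adjusted p = 0.9998). These high samples are the ones with purity of 75 and 66%. Of 4 measured markers of helper and regulatory CD4 T cells, 3 and 4 were above background in these samples, against 1 to 3 on the other arrays, and their summed signal was 277 and 419, against 181 to 345. Polyclonal sample 2 thus did not stand apart in this count or this sum. Cd4 itself, by its brightest probe set, was above background only in polyclonal samples 2 and 3, at 43.9 and 101. In polyclonal sample 2 it was close to the background of 43.6. On the other arrays this probe set read 2.80 to 17.4. Another Cd4 probe set lay under background on all arrays, at 3.68 to 13.3. The part of sort purity in the Trbv1 values was not tested further than by leaving both pairs out, which turned the mean difference to 0.21. The other Trbv1 probe set, 1433108_at, read 17.3, 4.17, 109 and 50.9 in expansions and 18.7, 76.8, 110 and 55.8 in their partners. The groups overlapped, and the 2 Trbv1 probe sets did not follow each other across arrays. The RefSeq table gives Trbv1 as V2, a chain that no expansion was sorted on, and 1452205_x_at was above background in all 4 expansions. The sources used here do not place the Trbv1 probes within the transcript. Whether this probe set reads the V segment was not tested.

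**Figure D1:**
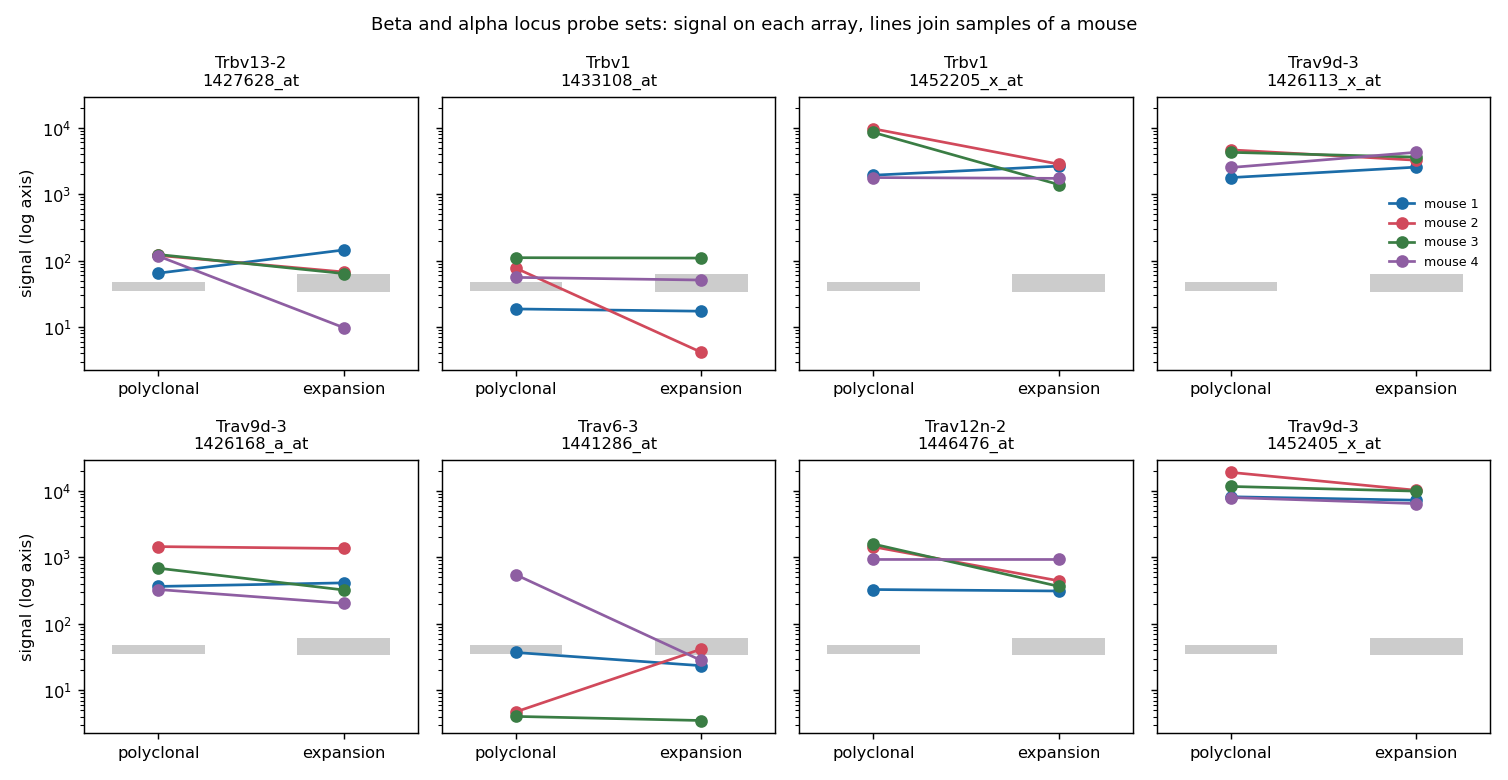
Signal (log axis) of 3 beta and 5 alpha locus probe sets in polyclonal samples and expansions, 1 point per array, with lines joining the samples of a mouse and grey bands spanning the background level over the arrays of each group. Trbv1 (1452205_x_at) is high in polyclonal samples 2 and 3, and Trav6-3 is above background only in polyclonal sample 4, at 548.

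Among alpha members, the brightest signals carried the symbol Trav9d-3. Probe set 1452405_x_at read 7235, 10215, 9919 and 6438 in expansions 1 to 4 and 8161, 18975, 11657 and 7949 in polyclonal samples 1 to 4, and was lower in the expansion of 4 of 4 pairs, by -0.40 ± 0.33 on the log2 scale (SD, n = 4; limma adjusted p = 0.9998). The ranges of the groups overlapped. Probe set 1426113_x_at, with the same symbol, read 2539, 3225, 3594 and 4248 against 1768, 4618, 4236 and 2507, higher in the expansion in 2 pairs and lower in 2. Without pair 4 its mean difference of 0.13 became -0.078. Over all 8 arrays the highest signal was 2.95 times the lowest for the first of these probe sets and 2.61 times for the second. Whether their probes lie in the V segment or elsewhere in the transcript is not stated in the labels or the platform list.

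Probe set 1426168_a_at, also Trav9d-3, separated the mice more than the groups. It read 1361 in expansion 2 and 1452 in its partner. On the other arrays it was 204 to 687. The last Trav9d-3 probe sets, 1427653_at and 1427766_at, reached at most 56.4 and 38.0. The platform thus gives 1 symbol to 5 probe sets whose signals followed different orders over the arrays.

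Trav12n-2 (1446476_at) read 312, 444, 367 and 930 in expansions 1 to 4 and 329, 1442, 1588 and 930 in polyclonal samples 1 to 4. The high arrays were again polyclonal samples 2 and 3, and pairs 1 and 4 were level, at log2 differences of -0.07 in pair 1 and close to 0 in pair 4. The mean over 4 pairs was -0.96 ± 1.09 (SD, n = 4), lower in 4 of 4 pairs (unadjusted p of 0.0449, limma adjusted p = 0.9998), and it was -0.037 with pairs 2 and 3 left out. Trav12n-1 (1449644_at), a related segment, lay at 16.4 to 66.3 on all arrays, above background in 2.

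Trav6-3 (1441286_at) had the most uneven values of the alpha locus. It read 548 in polyclonal sample 4 and 3.52 to 41.8 on the other 7 arrays, none of which was above its background. Its partner, expansion 4, read 28.2, so the polyclonal sample was at least 14.3-fold higher. The 1 array with a Trav6-3 signal was thus of a polyclonal population, in the B10.BR mouse, and not of an expansion. Whether the probes lie in the V segment is not stated in the sources used here. Over all probe sets without controls, 0.318% stood at least 4-fold above the other polyclonal samples in polyclonal sample 4.

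Trav13-5 (1445369_at) was dim throughout, at 65.8, 4.85, 20.1 and 25.5 in expansions and 12.9, 88.9, 100 and 43.5 in their partners. It was above background in expansion 1 and polyclonal samples 2 to 4. The Tcra probe set 1443140_at read 57.7 in expansion 1 and 1.27 in its partner, and was otherwise 4.34 to 50.6. Tcra was above background on 2 arrays.

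A member was counted as raised in an expansion where its signal there was above background, was the highest of the 8 arrays and exceeded the partner by a log2 difference of at least 2. Of 18 members, 1 was raised in expansion 1 and 0 in each of expansions 2, 3 and 4. Over all 45037 probe sets without controls the same rule held for 2.4%, 1.44%, 2.55% and 1.69% in pairs 1 to 4, so the members' count is near the background. The 1 raised member was Tcra, for which the partner was not above background and the expansion at least 1.18-fold higher. No expansion thus showed a bright signal that its polyclonal partner lacked among the 18 probe sets. The sources used here do not place these probes within the transcript. A probe set that does not read a V segment could not show the segment of a clone. The platform list named only 5 of the 130 Trav and 2 of the 35 Trbv segments, so most segments were not examined. RNA amplification also favoured 3' ends, away from V segments, with an effect that was not tested.

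A member was counted as lowered where the partner was above background and exceeded the expansion by the same margin. In pairs 1 to 4 this held for 2, 6, 4 and 4 of 18 members, against 2.92%, 8.63%, 5.82% and 2.76% of all probe sets without controls. Over the 4 pairs together these were 16 of 72 combinations, against 5.03% of all probe sets. Where the expansion was under background the margin is not exact, and with signals under background taken at background 10 of 72 combinations were left, against 0.722%. With a pseudocount of 32 the count was 9, for which no share over all probe sets is given. Gamma members made up 2 of the 2 in pair 1, 4 of the 6 in pair 2, 0 of the 4 in pair 3 and 2 of the 4 in pair 4. Several of them share a target, so they are not separate observations.

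**Figure D2:**
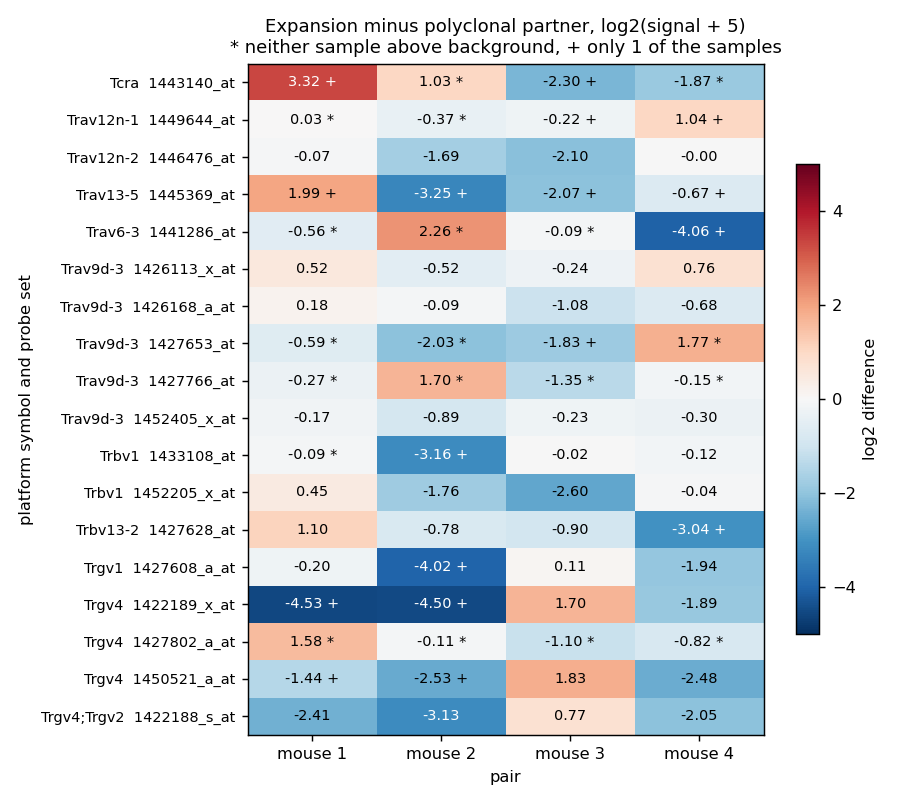
Log2(signal + 5) of each expansion minus that of its polyclonal partner for the 18 receptor members (rows) in the 4 pairs (columns), with an asterisk where neither sample was above background and a plus sign where only 1 was. Positive values of 2 or more are few (Tcra in pair 1, at 3.32, where the partner was not above background and the expansion at least 1.18-fold higher, and Trav6-3 in pair 2, at 2.26 with neither sample above background), and the gamma probe sets are negative in pairs 1, 2 and 4 and positive in pair 3, apart from Trgv4 1427802_a_at, which was under background throughout.

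The gamma locus held the members that separated the expansions from each other. Trgv4 probe set 1422189_x_at read 3.32 in expansion 1, 5.55 in expansion 2, 1806 in expansion 3 and 89.4 in expansion 4. In polyclonal samples 1 to 4 it read 188, 234, 553 and 345. Expansion 3 was the highest of all arrays and expansions 1, 2 and 4 were lower than every polyclonal sample. Since expansions 1 and 2 were not above background, the partner was at least 3.73-fold higher in pair 1 and at least 4.21-fold higher in pair 2. The log2 differences in pairs 3 and 4 were 1.70 and -1.89.

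A further Trgv4 probe set, 1450521_a_at, gave the same order of groups. It read 40.8, 42.7, 1283 and 49.1 in expansions 1 to 4 and 119, 270, 357 and 297 in their partners. The third, 1422188_s_at, lists both Trgv4 and Trgv2 and so names no single gene. It read 50.7, 65.2, 1890 and 230 in expansions and 292, 608, 1104 and 971 in their partners. On all 3 probe sets, expansion 3 was the highest array and expansions 1, 2 and 4 lay below all polyclonal samples. The last Trgv4 probe set, 1427802_a_at, was under background everywhere, at 0.70 to 20.2.

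Expansion 3 stood above the next highest expansion by log2 differences of 4.26, 4.57 and 3.01 on these 3 probe sets, that is 19.2-fold, 23.8-fold and 8.06-fold. A difference of at least 2 from every other expansion, a rule chosen after the values were seen, held for 3 of the 10 tested members in expansion 3, against 0.555% of the tested probe sets. The 3 members called in expansion 3 all list Trgv4, so they are not separate observations. In expansions 1, 2 and 4 the rule held for 0 of 10, against 0.808%, 0.111% and 0.12%. Against its own partner, expansion 3 was higher by 1.70, 1.83 and 0.77 on the log2 scale, and with 1 array per sample that difference has no replicate check.

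**Figure D3:**
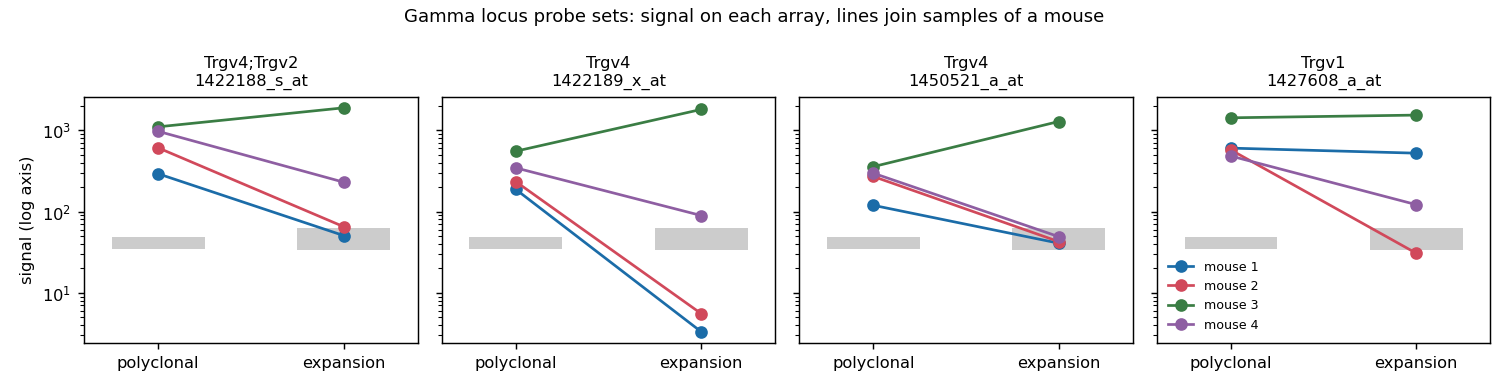
Signal (log axis) of 4 gamma locus probe sets in polyclonal samples and expansions, 1 point per array, with lines joining the samples of a mouse and grey bands spanning the background level over the arrays of each group. On the 3 probe sets that list Trgv4, expansion 3 is the highest array (1806, 1283 and 1890) while expansions 1, 2 and 4 lie below every polyclonal sample; on Trgv1, expansions 1 and 3 are close to their partners.

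Trgv1 (1427608_a_at) followed another order. It read 523, 30.7, 1539 and 122 in expansions 1 to 4 and 604, 573, 1425 and 482 in their partners. Pairs 1 and 3 were level, at log2 differences of -0.20 and 0.11, while expansion 4 differed by -1.94. In expansion 2 Trgv1 was not above background, and the partner was at least 10.2-fold higher. Expansion 1 thus had Trgv1 signal near that of its partner while its Trgv4 probe sets were at or close to background, and expansion 2 was low for both. The sources used here do not place the gamma probes within the transcript either. Which V gamma segment a clone transcribes was therefore not settled by these signals. Both samples of mouse 3 were the highest of their group for Trgv1, as they were on the 3 Trgv4 probe sets with a signal.

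Over all 4 pairs, the mean log2 differences of the gamma members were -2.31 ± 2.94 (1422189_x_at), -1.70 ± 1.71 (1422188_s_at), -1.15 ± 2.05 (1450521_a_at) and -1.51 ± 1.90 (Trgv1; SD, n = 4 each), each lower in 3 of 4 pairs. Unadjusted p values were 0.0223, 0.0111, 0.102 and 0.0282, and none passed (limma adjusted p = 0.9998 for each). With pair 3 left out, 1422188_s_at was at -2.53 (limma adjusted p = 0.444, with a range of 0.444 to 0.999998 over its 13 alternatives). With pair 2 left out, Trgv1 was at -0.68 (limma adjusted p = 0.946).

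Genes of the lineage that uses gamma chains were checked beside these values. Of 5 measured markers of NKT and gamma delta T cells, 2, 1, 2 and 4 were above background in expansions 1 to 4 and 2, 4, 3 and 5 in their partners. The summed signal of these markers was 244 to 718 in expansions and 288 to 480 in polyclonal samples. Expansion 3 held the highest sum, to which 5830411N06Rik, a scavenger receptor family gene of gamma delta T cells, gave 459, against 74.4 to 148 in the other expansions and 88.3 to 234 in polyclonal samples. Sox13, a transcription factor gene of that lineage, read 35.0 in expansion 3, under background, and was above background only in polyclonal samples 2 to 4. The part of gamma delta cells in the gamma values was not tested, and the members hold no delta locus probe set.

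Of the 18 receptor members 10 passed the filter on low signal and were tested in limma over the 4 pairs. At an adjusted p of 0.05, 0 of 10 passed, as did 0% of the 22518 probe sets tested. At an unadjusted p under 0.05, 4 of 10 members lay lower (1422188_s_at, Trgv4 1422189_x_at, Trgv1 and Trav12n-2) and 0 higher, where 3.25% of all tested probe sets lay in either direction and 2.3% lower. The median difference of the 10 was -0.98, against -0.037 over all probe sets tested, and 9 of 10 had a negative mean, against 53.9%. Of these 4 members 3 are gamma probe sets, 2 of them listing Trgv4. Lower in 4 of 4 pairs were 2 of the 10, Trav12n-2 and Trav9d-3 1452405_x_at, against 6.05% of probe sets tested. For Trav12n-2 this counts pair 4 as lower, at 929.8 in the expansion and 930.4 in the partner, which is level. Without mouse as a block, 0 of 10 members had an unadjusted p under 0.05. With pair 2 left out, 0 of the 11 members then tested did.

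The CD3 chains carry the receptor to the surface. Of 7 genes for CD3 chains and coreceptors, each taken by its brightest probe set as in all marker lists here, 6 were tested and 0 passed (0 also at an unadjusted p under 0.05), with a median difference of -0.12. Over all 11 tested probe sets of these genes 1 had an unadjusted p under 0.05, a further Cd8a probe set at -0.68 (p of 0.0374, limma adjusted p = 0.9998). Cd3e, a signalling chain of the receptor complex, read 1141, 694, 1811 and 481 in expansions and 775, 1534, 1048 and 545 in their partners. Cd247, the zeta chain gene, read 983, 345, 1220 and 302 against 1058, 1153, 791 and 776. It was lower in the expansion in pairs 1, 2 and 4 and higher in pair 3. Expansions 2 and 4 were lower than expansions 1 and 3 for both. Cd8a, the coreceptor gene by whose protein the cells were sorted, was 13073 to 30815 over all arrays. Of 10 measured genes for receptor assembly, Rag1, Rag2 and Ptcra, which act in thymocytes, were above background on 0 arrays. Dntt, of the same list, was above background on 2 arrays, at 45.2 in polyclonal sample 2 and 58.7 in polyclonal sample 3. Of the 6 assembly genes tested 0 passed.

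B cell genes (5 of 8 tested) and NK cell genes (3 of 6 tested) had 0 past an adjusted p of 0.05 and 0 at an unadjusted p under 0.05. Their summed signal was 3044 to 4050 and 8621 to 21561 in expansions, and 2122 to 4533 and 12167 to 17672 in polyclonal samples. The sum for NK cell genes came mostly from Eomes, which memory CD8 cells also express. For helper and regulatory CD4 T cells the sum was 277 to 345 in expansions and 181 to 419 in polyclonal samples (3 tested, 0 passed). Macrophage, monocyte and dendritic cell genes summed to 2778 to 4710 in expansions and 2486 to 2729 in polyclonal samples, so that every expansion lay above every polyclonal sample. Of the 8 tested 7 were higher in expansions and 1 lower, with a median difference of 0.49, and 0 passed the adjusted threshold. Csf1r, a growth factor receptor gene of macrophages, was at 0.998 (unadjusted p of 0.0309, limma adjusted p = 0.9998), with another Csf1r probe set at -0.37, and Cd74, the invariant chain gene of MHC class II, at 1.399 (unadjusted p of 0.0233, limma adjusted p = 0.9998). Of the 2 measured erythroid genes 0 were tested. Ncr1, which defines NK cells, was above background on 0 arrays. Of the other NK cell genes, Eomes was above background on 8 arrays, Tyrobp on 6, Fcer1g on 5 and Klrb1b on 2. The B cell gene Ms4a1 was above background on 8 arrays, at 273 to 854. The part of such cells in the receptor values was not tested.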

How the data were processed

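The deposited values are a linear intensity for each probe set. Per the submitters' processing notes they come from MAS5, with its version not given in the sources used here. The values carry a common scale, with a mean of 500 on every array after trimming 2% at each end, and were used as they stand. Per the labels' protocols, RNA was amplified in a double procedure, which favours 3' ends of transcripts, whereas V segments lie toward the 5' end; the effect of this on the values was not tested.

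Values were taken as log2(signal + 5), which understates differences of dim probe sets. For tests, 64 control probe sets and those with a mean not above the median (a signal of about 45.3) were left out, which kept 22518. The fit was limma 3.58.1 in R 4.3.3 (lmFit, eBayes with trend) with mouse as a block, two-sided, with Benjamini-Hochberg adjustment over all probe sets tested. The study design pairs samples by mouse; deviations from group means correlated at 0.374, 0.0771, 0.214 and 0.338 in pairs 1 to 4. Samples of different mice correlated more in places, at 0.301 for expansion 3 with polyclonal 2 and 0.131 for expansion 2 with polyclonal 4. Each mouse gave 1 sample of a kind, so per-pair values carry no test. The fit and the counting rule were tested on simulated data.

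Symbols came from the platform annotation; 1 of the 18 receptor members lists several. All 11 Entrez identifiers were in the RefSeq table. No sequences or coordinates were used here. Members, lists and rules were chosen with earlier results of these data known. Values were given for members of a sorted V beta, members raised in 1 expansion and members at an unadjusted p under 0.05, and for the rest by locus. Constant region members, also in that rule, are 0.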

Additional observations from a re-analysis of the deposited data

Results flagged for a closer look

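Within each group of 4 arrays, signals were searched for a sample that lies far from the others, measured as its gap to the nearest one over the group's whole range and set against Dixon's critical value. Of 36 groups (18 members in 2 groups of samples) 6 were marked. The gaps were taken on the linear signal. The critical value marks about 1 in 20 groups of normally distributed values, a rate that need not hold for linear signals. The count is therefore no measure of an excess over chance. Probe sets that share a target are not independent.

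Expansion 3 stood apart from the other expansions on 3 gamma probe sets, at 1890 on 1422188_s_at (gap over range 0.902), 1806 on Trgv4 1422189_x_at (0.952) and 1283 on Trgv4 1450521_a_at (0.993). Polyclonal sample 3 stood apart from the other polyclonal samples for Trgv1, at 1425 (0.871). Polyclonal sample 4 did so for Trav6-3, at 548 (0.939). For Trbv13-2, polyclonal sample 1 lay below the other polyclonal samples, at 64.6 (0.887), in a range close to background.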

How the results depend on the processing

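Over 13 alternatives to the reported limma fit, 0 receptor members passed an adjusted p of 0.05. The count at an unadjusted p under 0.05 (4 as reported) was 0 with no replicate block, 0 to 5 with 1 pair left out, 0 being without pair 2, and 3 to 5 otherwise. The block changed no call at the adjusted threshold. Of 127 refits of single members 125 kept their sign. Refits that changed only the filter, the trend or the block leave a mean difference as it was, so their sign was fixed in advance. Probe set 1426113_x_at was at -0.078 to 0.348 with a pair left out, negative without pair 4. Trbv1 1452205_x_at was at 0.21 without pairs 2 and 3, an alternative chosen after seeing the data. Members raised in an expansion (1 as reported) numbered 0 with a pseudocount of 32, 0 with background at the highest bacterial control, 0 with signals under background taken at background (chosen after seeing the data), 2 with quantile normalization, 4 with a difference of at least 1, and 0 to 1 with a pair left out. Members lowered (16) numbered 9 with a pseudocount of 32, 10 with signals under background taken at background, 8 with a difference of at least 3 and 10 to 14 with a pair left out. Members apart from the other expansions (3) numbered 10 with a difference of at least 1 and 2 to 5 with a pair left out, 5 being without pair 1. The cause was not tested where fewer samples or a wider rule do not give it. For these counts of raised, lowered and apart members the share over all probe sets is mostly not given. The exception is lowered members with signals under background taken at background (0.722%). The other counts under changed rules are therefore not set against a background. For the Trbv13-2 probe set the difference in pair 2 was -0.81 to -0.35 over the alternatives. Signals near background limit what can be said of Trbv13-2 and Tcra.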
